A study of Mus musculus with 20 samples.

Results

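The data described here are the 12 RNA-seq libraries that cross a vector for Myc with loss of Trim33, out of the 20 libraries of the series, and the question is where the response to the Myc vector differed between cells with and without Trim33. The members were chosen by the design and not by a measured value: all 12 libraries entered, and all 13107 genes of the count table were tested. All libraries came from p19/Nras cells, which were grown from a mouse liver tumour induced by Nras in p19/Arf-null mice, and the labels give liver as the tissue and HCC, hepatocellular carcinoma, as the cell type. Trim33-WT cells carried the guide sgCtrl, and the lines KO1 and KO2 carried sgTrim33, a CRISPR guide against Trim33, with either the empty vector pWZL (Ctrl) or Myc. Nras and the p19/Arf loss were shared by all 6 groups, none of which was treated, and each group had 2 libraries. WT, KO1 and KO2 were each 1 line, and the labels do not say whether the 2 libraries of a group came from separate cultures, so that p-values measure the spread between these libraries only. Fewer cells of a kind and less RNA per cell cannot be told apart in such bulk samples.

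Trim33 is a ubiquitin ligase of the TIF1 family of chromatin readers, known for its part in TGF-beta signaling. Myc is a transcription factor that pairs with Max at E-box sequences and is known to raise genes of ribosome production, nucleotide synthesis and cell cycle entry in liver tumours. Where a pair of changes acts on a gene independently on the log scale, their effects add up, and the interaction measures the departure from that sum. The interaction was the mean Myc response of KO1 and KO2 (Myc minus Ctrl) minus the Myc response of WT, in log2 units. A positive interaction means a more positive Myc response in KO than in WT, which can be a stronger rise, a weaker fall or a turn of direction. Levels are CPM, read counts scaled to a common library size with TMM factors, and a gene was called where its Benjamini-Hochberg adjusted p was below 0.01 in edgeR's quasi-likelihood test over all genes.

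The library totals ranged from 14753177 to 17949430 counts, and replicates of a group correlated at 0.9933 to 0.9956 (Pearson's r of log2 CPM across genes, which are not independent replicates). The WT Myc libraries, which enter every interaction, differed most from each other. Over genes with at least 20 counts in the pair their mean squared difference was 11.1 times that of counting noise, against 2.25 to 4.53 times in the other groups. The line labels of the KO libraries did not match between the vectors. The libraries KO1 Ctrl correlated at 0.9790 to 0.9803 with those labelled KO2 Myc, but at 0.9611 to 0.9628 with those labelled KO1 Myc. The libraries KO2 Ctrl correlated at 0.9789 to 0.9805 with those labelled KO1 Myc, against 0.9526 to 0.9542 with those labelled KO2 Myc. Genes missing from a single line showed the same. Of the 9 genes with at most 0.5 CPM in both KO1 Ctrl libraries and at least 5 CPM in every other Ctrl library, 9 were at most 0.5 CPM in both KO2 Myc libraries and 9 averaged at least 1 CPM in KO1 Myc. Ptk7, a Wnt co-receptor and the only gene missing from KO2 Ctrl alone, was at 0.261 and 0.325 CPM there, at 2.33 and 1.85 in KO1 Myc and at 23.8 and 25.4 in KO2 Myc. The groups are named below as labelled and no library was moved. The interaction averages both lines within each vector, so its value does not depend on which of the lines a KO Myc library came from, whereas the interaction of KO1 or KO2 alone does.

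**Figure D1:**
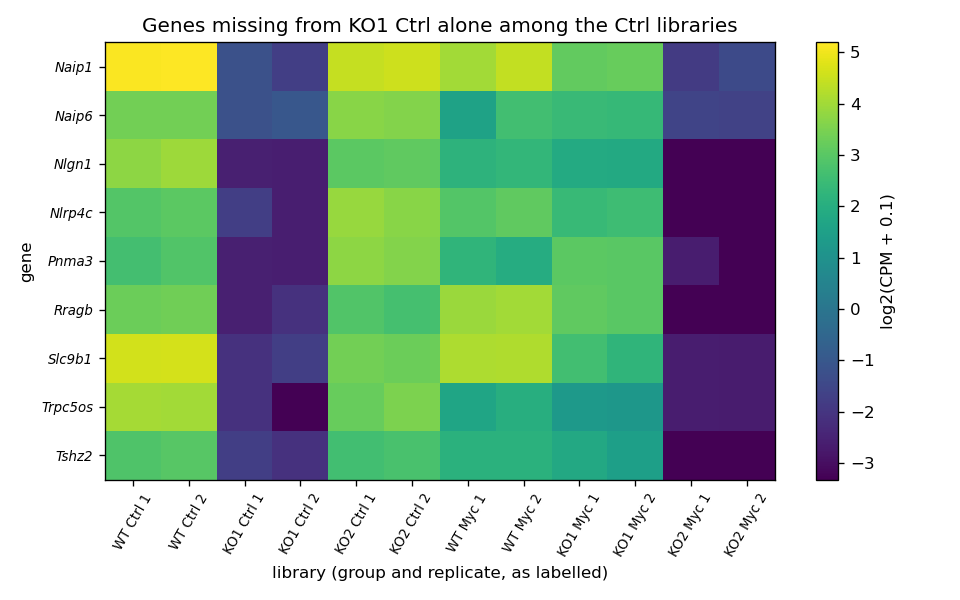
The heat map shows log2(CPM + 0.1) of the 9 genes missing from KO1 Ctrl alone among the Ctrl libraries (rows), in all 12 libraries (columns, named as labelled). The 2 libraries labelled KO2 Myc carry the pattern of KO1 Ctrl, and those labelled KO1 Myc do not.

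Trim33, the targeted gene (mm9 chr3:103083216-103162691, plus strand), stood at 246 and 258 CPM in WT Ctrl, at 123 and 130.4 in KO1 Ctrl, at 201 and 207 in KO2 Ctrl, at 131 and 155 in WT Myc, at 185 and 193 in KO1 Myc and at 124 and 125 in KO2 Myc. All 10 other libraries lay below WT Ctrl, and the WT Myc libraries lay below those of KO2 Ctrl and KO1 Myc, so the level of this RNA did not separate the WT from the KO libraries. With the Myc vector Trim33 fell in WT by 0.82 on the log2 scale, whereas its KO response was -0.07 and not called, which gave an interaction of 0.75 ± 0.08 (SE, adjusted p = 2.5e-06). A CRISPR cut need not remove the RNA, and the protein was not measured in these libraries. The study shows an immunoblot of its Trim33-WT and Trim33-KO p19/Nras lines, and describes Trim33 expression as abolished by CRISPR. In 20 genes both WT Ctrl libraries had at least 5 CPM and all KO Ctrl libraries at most 0.5 CPM. Of these, 14 averaged at least 1 CPM in WT Myc, 3 in KO1 Myc and 1 in KO2 Myc. The reverse held for 8 genes missing from WT Ctrl alone. Of those, 5 were at most 0.5 CPM in both WT Myc libraries, against 0 in KO1 Myc and 0 in KO2 Myc. In WT Myc 3 of the 8 averaged at least 1 CPM. The direction of every comparison below still rests on the labels.

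Myc itself had an interaction (mm9 chr15:61816946-61821929, plus strand). It stood at 433 and 439 CPM in WT Ctrl, at 186 and 196 in KO1 Ctrl, at 210.3 and 219 in KO2 Ctrl, at 456 and 458 in WT Myc, at 621 and 646 in KO1 Myc and at 459 and 499 in KO2 Myc. The KO Ctrl libraries were the lowest, and all libraries with the Myc vector were at or above WT Ctrl. The response was 0.07 in WT, where it was not called, and 1.44 ± 0.04 (SE, adjusted p = 7.0e-13) in KO, and the interaction was 1.38 ± 0.07 (SE, adjusted p = 3.4e-10). With the Ctrl vector KO minus WT was -1.11 ± 0.05 (SE, adjusted p = 5.5e-12). Whether the counts include transcripts of the vector is not given in the sources used here.

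E2f1, an activator of S-phase genes, stood at 25.01 and 21.8 CPM in WT Ctrl, at 40.1 and 42.9 in KO1 Ctrl, at 54.7 and 54.6 in KO2 Ctrl, at 41.6 and 42.9 in WT Myc, at 42.7 and 46.8 in KO1 Myc and at 43.95 and 40.6 in KO2 Myc. WT Ctrl was the lowest group and the 10 other libraries lay together well above it. E2f1 rose with the Myc vector in WT by 0.85 and with loss of Trim33 by 1.03, but changed by -0.13 in KO (not called), with an interaction of -0.98 ± 0.10 (SE, adjusted p = 1.1e-06). E2f4, the E2f factor of the DREAM repressor, had an interaction of -0.0018 ± 0.08 (SE, adjusted p = 0.997) and rose by 0.24 in WT and 0.24 in KO. Recql, a RecQ helicase, had an interaction of -0.35 ± 0.15 (SE, adjusted p = 0.074), which missed the threshold.

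The interaction was called in 4543 genes, 34.7% of those tested, with 2367 higher (18.1%) and 2176 lower (16.6%). The median absolute interaction of called genes was 0.63, with quartiles of 0.45 and 0.96, and 1046 called genes reached an absolute value of 1. Over all genes the median interaction was 0.00031. Scaling by library totals alone gave 1876 higher and 2728 lower interactions. The Myc response was called in 5807 genes in WT, 44.3%, and in 5506 genes in KO, 42% of those tested. By direction the response rose in 21.6% and fell in 22.7% of genes in WT, and rose in 21.1% and fell in 20.9% in KO. These responses share no library, and across genes their correlation was low (Pearson's r = 0.199, Spearman's rho = 0.238, n = 13107 genes, which are not independent replicates). The median absolute response of called genes was 0.55 in WT and 0.38 in KO, where it averages both lines. It was 0.52 in KO1 and 0.53 in KO2 alone as labelled. The line labels did not match between the vectors, so the values of KO1 and KO2 alone can hold the difference between the lines. The median SE was 0.059 for the KO response against 0.086 in WT.

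Genes with an interaction fell into classes by the calls and signs of their WT and KO responses. The response was called in WT only for 1894 genes, 41.7% of the 4543, of which 1006 had a positive and 888 a negative interaction. It was called in KO only for 1040 genes, 530 higher and 510 lower. In 919 genes, 20.2%, the response was called in both with opposite directions: 463 fell in WT and rose in KO, and 456 rose in WT and fell in KO. A response in the same direction was smaller in KO for 469 genes and larger in KO for 70. The remaining 151 genes were called in neither. The interaction is made of the same WT and KO responses that set the classes, so the counts describe the calls. The imbalance between smaller and larger responses was not tested. Some counts moved with a single library: without WT Ctrl replicate 2 there were 599 opposite, 1232 WT only, 310 smaller and 27 larger responses, without WT Ctrl replicate 1 there were 24 larger responses, and without WT Myc replicate 2 there were 768 smaller ones.

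**Figure D2:**
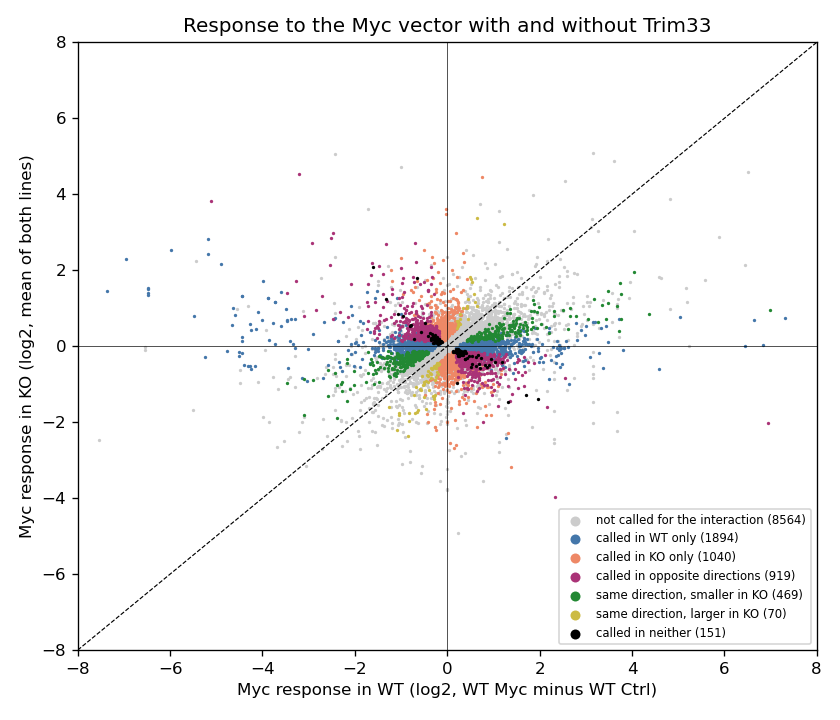
Each point is a gene, with its Myc response in WT on the x axis and the mean response of the KO lines on the y axis, both in log2 units. Colours give the class by sign, with the number of genes in the key. The dashed line marks equal responses. The 1894 genes called in WT only lie along the horizontal axis and the 919 genes of opposite direction in the upper left and lower right.

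The classes by additivity compare the interaction with the pair of single changes, the Myc vector in WT cells and loss of Trim33 with the Ctrl vector. Loss of Trim33 changed 7277 genes with the Ctrl vector (55.5%) and 4433 with the Myc vector (33.8%). With the Ctrl vector 26% of genes were higher and 29.5% lower in KO. Both single changes were called higher in 1649 genes, and in 1283 of these, 77.8%, the interaction was lower, in 365 it was not called and in 1 it was higher. Both were called lower in 1961 genes, with the interaction higher in 1453, 74.1%, not called in 497 and lower in 11. Without WT Ctrl replicate 2 the 1283 became 803, and the 12 interactions in the direction of both single changes became 6 without either WT Ctrl library. In the genes where both rose, the single changes had medians of 0.62 for Myc and 0.70 for KO and a median sum of 1.34, but KO Myc lay only 0.69 above WT Ctrl. In the genes where both fell, the median sum was -1.21 and KO Myc lay at -0.67. The median Myc response in KO was -0.01 in each of these classes, although single members moved far more, such as Cth at 2.97 and Rrm2 at -0.52. Where the single changes were called in opposite directions (426 genes) the interaction was called in 24.6%, where only the KO change was called (3241 genes) in 29.7%, and where only the Myc change was called (1771 genes) in 28.2%. Of the 4059 genes with neither single change called, 229 had an interaction, 5.64%.

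**Figure D3:**
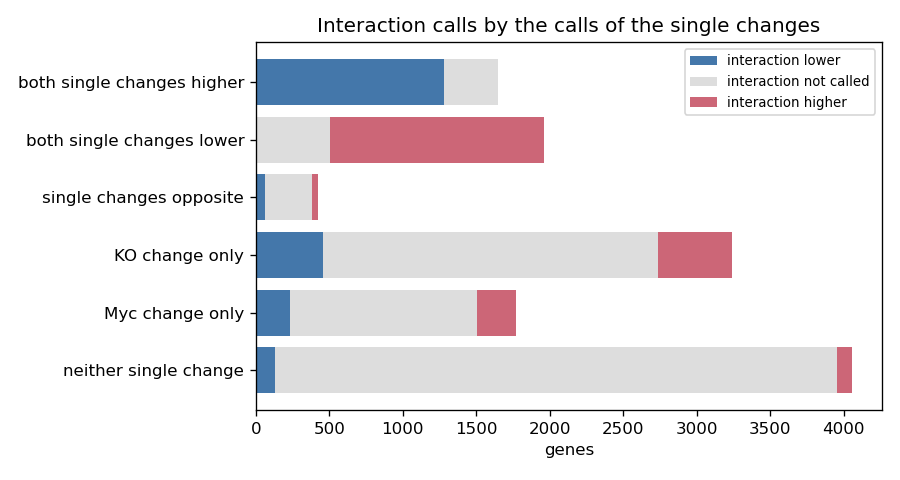
Bars give the number of genes (x axis) by which of the single changes were called, split by the call of the interaction. Where both single changes were higher the called interactions were lower in 1283 of 1284 genes, and where both were lower they were higher in 1453 of 1464.

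The single changes and the interaction all contain the WT Ctrl libraries, and these stood apart from the others. Both WT Ctrl libraries lay outside the range of the other 10 in 4864 genes, 37.1% of those tested, above them in 2568 and below them in 2296. The same count was 2100 for KO1 Ctrl, 2181 for KO2 Ctrl, 2011 for WT Myc, 931 for KO1 Myc and 1955 for KO2 Myc. Among the 4543 genes with an interaction, WT Ctrl lay outside in 2860, 63.0%. An interaction of the same sign follows from a shift of the WT Ctrl cells alone as from a pair of changes that do not add up, and these cannot be told apart in this design.

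The 10 largest positive interactions lay between 3.42 and 5.45, WT Ctrl was above all other libraries in 9 of them, and 8 had opposite responses in WT and KO. Cth, which makes cysteine from cystathionine (mm9 chr3:157557212-157588041, minus strand), stood at 200.3 and 204 CPM in WT Ctrl, at 4.59 and 4.21 in KO1 Ctrl, at 4.70 and 4.10 in KO2 Ctrl, at 43.4 and 29.1 in WT Myc, at 43.7 and 41.1 in KO1 Myc and at 20.9 and 35.1 in KO2 Myc. WT Ctrl was highest, both KO Ctrl groups were lowest, and the 6 Myc libraries lay between them without overlap. Cth fell with the Myc vector in WT by 2.48 on the log2 scale and rose in KO by 2.97, giving an interaction of 5.45 ± 0.24 (SE, adjusted p = 1.6e-10). Adding the single changes would have put KO Myc at 0.790 CPM, and the mean over both lines was 34.5 CPM (geometric mean of the line means). Aldh1l2, the mitochondrial enzyme that oxidises formyl-tetrahydrofolate (mm9 chr10:82950195-82996885, minus strand), stood at 305 and 349 CPM in WT Ctrl, at 12.2 and 12.5 in KO1 Ctrl, at 14.6 and 15.7 in KO2 Ctrl, at 49.3 and 51.2 in WT Myc, at 43.4 and 42.1 in KO1 Myc and at 22.8 and 31.8 in KO2 Myc. It too was highest in WT Ctrl and lowest in KO Ctrl, with an interaction of 4.02 ± 0.13 (SE, adjusted p = 1.9e-11).

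Ppp1r15a encodes Gadd34, the phosphatase subunit that resets translation after stress, and stood at 565 and 625 CPM in WT Ctrl, at 34.5 and 32.9 in KO1 Ctrl, at 31.8 and 32.3 in KO2 Ctrl, at 174 and 109 in WT Myc, at 121 and 109 in KO1 Myc and at 67.7 and 112 in KO2 Myc, with an interaction of 3.71 ± 0.23 (SE, adjusted p = 4.9e-09). Trib3, a pseudokinase induced by Atf4, stood at 265 and 267 CPM in WT Ctrl, at 14.5 and 13.3 in KO1 Ctrl, at 13.1 and 11.9 in KO2 Ctrl, at 306 and 218 in WT Myc, at 186 and 171 in KO1 Myc and at 115 and 178 in KO2 Myc. Here WT Myc overlapped WT Ctrl, and the KO Ctrl libraries lay far below all others. Its response was -0.03 in WT (not called) and 3.62 in KO, with an interaction of 3.64 ± 0.21 (SE, adjusted p = 1.8e-09). Ddr2, a collagen receptor kinase, stood at 80.9 and 86.8 CPM in WT Ctrl, at 7.05 and 7.36 in KO1 Ctrl, at 2.55 and 2.86 in KO2 Ctrl, at 50.7 and 52.6 in WT Myc, at 20.5 and 20.6 in KO1 Myc and at 37.96 and 44.5 in KO2 Myc, with an interaction of 3.42 ± 0.12 (SE, adjusted p = 1.9e-11). The KO Ctrl libraries were the lowest, and the WT Ctrl libraries were the highest. The others were Fam171b with an interaction of 3.91, Acot2, a mitochondrial acyl-CoA thioesterase, with 3.81, Cdsn, a protein of cornified cell junctions, with 3.79, Plet1 with 3.78, and Calcrl, the receptor for calcitonin-like peptides, with 3.53. Plet1 was at 20.6 and 24.9 CPM in WT Ctrl and between 0.949 and 2.09 CPM in the other 10 libraries.

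The largest negative interactions lay between -3.47 and -2.50, and in 8 of these 10 genes both single changes were called higher. WT Ctrl was below all other libraries in 7. Atoh8, a basic helix-loop-helix factor that BMP signaling induces in liver (mm9 chr6:72156171-72185571, minus strand), stood at 1.98 and 1.504 CPM in WT Ctrl, at 21.4 and 19.1 in KO1 Ctrl, at 18.6 and 12.8 in KO2 Ctrl, at 16.8 and 17.2 in WT Myc, at 11.05 and 11.3 in KO1 Myc and at 22.8 and 21.05 in KO2 Myc. The 10 libraries other than WT Ctrl lay between 11.05 and 22.8 CPM, and the interaction was -3.47 ± 0.24 (SE, adjusted p = 9.8e-09). Sprr1b, a cornified envelope protein, stood at 2.97 and 2.32 CPM in WT Ctrl, at 87.03 and 80.6 in KO1 Ctrl, at 185 and 181 in KO2 Ctrl, at 15.4 and 15.6 in WT Myc, at 109 and 119.5 in KO1 Myc and at 46.9 and 36.7 in KO2 Myc. All groups lay above WT Ctrl, WT Myc the least, and KO fell with the Myc vector by 0.84 on the log2 scale, for an interaction of -3.39 ± 0.19 (SE, adjusted p = 1.3e-09). The sum of its single changes would have given 724 CPM in KO Myc against 69.1 observed.

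C3, the central complement protein, stood at 3.46 and 3.42 CPM in WT Ctrl, at 36.7 and 38.8 in KO1 Ctrl, at 13.3 and 10.8 in KO2 Ctrl, at 42.7 and 47.6 in WT Myc, at 24.01 and 30.7 in KO1 Myc and at 31.7 and 26.2 in KO2 Myc, with an interaction of -3.31 ± 0.20 (SE, adjusted p = 2.3e-09). Aldh3a1, an aldehyde dehydrogenase, stood at 84.2 and 68.02 CPM in WT Ctrl, at 124 and 129 in KO1 Ctrl, at 304 and 276 in KO2 Ctrl, at 132 and 130.4 in WT Myc, at 84.4 and 84.7 in KO1 Myc and at 26.2 and 27.3 in KO2 Myc. It was raised by each change alone, but with both KO1 Myc was at the level of WT Ctrl and KO2 Myc below it, and its interaction was -2.79 ± 0.10 (SE, adjusted p = 2.6e-11). Trpm6, a magnesium channel, stood at 4.24 and 3.08 CPM in WT Ctrl, at 4.46 and 4.14 in KO1 Ctrl, at 6.40 and 6.96 in KO2 Ctrl, at 19.7 and 25.3 in WT Myc, at 7.09 and 8.15 in KO1 Myc and at 3.86 and 3.43 in KO2 Myc, so that only WT Myc was high, and its interaction was -2.65 ± 0.22 (SE, adjusted p = 8.5e-08). Chst2, a sulfotransferase, was at 25.2 and 21.5 CPM in KO1 Ctrl, at 12.3 and 11.6 in KO2 Ctrl and between 1.67 and 5.50 in the others, with an interaction of -2.62. The others were P2ry14, a receptor for UDP-sugars, with -2.72, Slco4a1, an organic anion transporter, with -2.71, Mxd3, a Max partner that opposes Myc, with -2.65, and Col3a1, a fibrillar collagen, with -2.50. Col3a1 stood at 6.22 and 5.54 CPM in WT Ctrl, at 370.2 and 318 in KO1 Ctrl, at 44.6 and 38.6 in KO2 Ctrl, at 28.6 and 34.8 in WT Myc, at 35.2 and 40.6 in KO1 Myc and at 354 and 341 in KO2 Myc. It was high in KO1 Ctrl and KO2 Myc, the pair of groups that share the missing genes above, and its interaction was -5.62 for KO1 and 0.63 for KO2 as labelled.

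The genes with the lowest p of each class show its form. Of those called in WT only, Ccl2, the monocyte chemokine (mm9 chr11:81849073-81850955, plus strand), stood at 52.99 and 45.8 CPM in WT Ctrl, at 141 and 155 in KO1 Ctrl, at 76.9 and 72.1 in KO2 Ctrl, at 286 and 254 in WT Myc, at 111 and 109.5 in KO1 Myc and at 94.1 and 98.6 in KO2 Myc. It rose in WT by 2.45 ± 0.08 (SE, adjusted p = 4.2e-12) and its KO response was -0.03 (not called), and the interaction was -2.48 ± 0.10 (SE, adjusted p = 7.2e-11). Osbpl2, an oxysterol-binding protein, fell from 155 and 179 CPM in WT Ctrl to 42.9 and 41.4 in WT Myc, while all 8 KO libraries lay between 31.5 and 43.9 CPM. Adamtsl3, a matrix protein, followed it with an interaction of 1.86. Of those called in KO only, Myc is described above and Chac1 below, and Slc1a4, a neutral amino acid transporter, stood at 133 and 129 CPM in WT Ctrl, at 27.9 and 30.4 in KO1 Ctrl, at 40.2 and 41.6 in KO2 Ctrl, at 122 and 113 in WT Myc, at 110.5 and 115 in KO1 Myc and at 96.6 and 117 in KO2 Myc, low in KO Ctrl alone, with an interaction of 1.83 ± 0.10 (SE, adjusted p = 1.0e-09).

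The class of smaller responses in KO was led by Ube2ql1, which stood at 120.3 and 122 CPM in WT Ctrl, at 49.1 and 52.6 in KO1 Ctrl, at 77.5 and 84.1 in KO2 Ctrl, at 11.8 and 10.2 in WT Myc, at 66.9 and 62.6 in KO1 Myc and at 15.8 and 16.8 in KO2 Myc, by Antxr2, an anthrax toxin receptor, with an interaction of 1.55, and by Htra1, a secreted protease, with 1.96. The response of Htra1 was -2.58 in WT and -0.63 in KO. The class of larger responses in KO was led by Ifitm1, an interferon-induced membrane protein, which stood at 158 and 147 CPM in WT Ctrl, at 129 and 120.3 in KO1 Ctrl, at 141 and 134 in KO2 Ctrl, at 131 and 123 in WT Myc, at 65.4 and 64.9 in KO1 Myc and at 43.7 and 44.8 in KO2 Myc. The Myc vector alone changed it by -0.27 and loss of Trim33 alone by -0.22, and it was lowest with both, with an interaction of -1.02 ± 0.08 (SE, adjusted p = 2.7e-08). Apcdd1, a Wnt inhibitor, had -1.06, and Slfn2, a Schlafen factor of immune cells, had -1.11. Slfn2 turned sign between the lines as labelled, with 1.26 for KO1 and -3.47 for KO2. Of the class called in neither, Tnks2, a poly-ADP-ribose polymerase, had an interaction of 0.33 ± 0.07 (SE, adjusted p = 0.0013), Pknox1, a homeobox factor, had 0.46 and Map2k5, a MAP kinase kinase, had 0.42. A group at or below 3 counts in each of its libraries occurred in 623 genes, 82 of them with an interaction, for which no fold change is given. Of these, AI662270 was at 57.6 and 52.3 CPM in WT Ctrl and 0.0593 and 0.166 in KO2 Myc, Pramef12 was at 22.9 and 24.3 and 0 and 0, Smpdl3b was at 0.0707 and 0.137 in WT Ctrl and 40.5 and 37.8 in KO2 Myc, and Prelp was at 0.0707 and 0.205 in WT Ctrl and 18.3 and 16.7 in KO1 Ctrl.

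The amino acid stress response is the set of genes that Atf4 switches on when amino acids run short: tRNA synthetases, amino acid transporters and feedback factors. Of its 25 listed genes, 23 had a higher and 0 a lower interaction, beside 18.1% and 16.6% of all genes. These shares of all genes stand beside the counts of every list below. So do the shares raised and lowered by the Myc vector, 21.6% and 22.7% in WT and 21.1% and 20.9% in KO. With the Ctrl vector 26% of all genes were higher and 29.5% lower in KO. The median interaction was 1.55, against 0.00031 over all genes. All 25 were lower in KO than in WT with the Ctrl vector, with a median of -1.86. The Myc vector lowered 13 and raised 1 in WT, but raised 24 and lowered 1 in KO. Asns, asparagine synthetase, stood at 652 and 655 CPM in WT Ctrl, at 84.3 and 83.2 in KO1 Ctrl, at 87.00 and 83.6 in KO2 Ctrl, at 437 and 353 in WT Myc, at 315 and 283 in KO1 Myc and at 216 and 286 in KO2 Myc. The order was WT Ctrl, then the Myc groups, then both KO Ctrl groups, with WT Myc above KO Myc, and the interaction was 2.42 ± 0.13 (SE, adjusted p = 1.1e-09). Chac1, which degrades glutathione, stood at 84.8 and 77.4 CPM in WT Ctrl, at 10.6 and 8.02 in KO1 Ctrl, at 10.1 and 8.85 in KO2 Ctrl, at 99.8 and 84.7 in WT Myc, at 81.05 and 79.4 in KO1 Myc and at 62.5 and 76.8 in KO2 Myc, low in KO Ctrl only, with an interaction of 2.81 ± 0.14 (SE, adjusted p = 4.6e-10). Fgf21, a stress hormone of the liver, was at 0.0665 and 0.0657 CPM in KO1 Ctrl, at 0.0653 and 0 in KO2 Ctrl, between 1.07 and 1.40 in KO Myc and at 1.27 and 1.44 in WT Ctrl. Both KO Ctrl groups were at or below 3 counts, so no fold change is given. Ddit4, an inhibitor of mTORC1, did not pass, with an interaction of -0.10 ± 0.11 (SE, adjusted p = 0.52).

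Serine and one-carbon metabolism supplies glycine, formate and methyl groups, and shares Atf4 control with the list above. Of its 12 genes, 8 had a higher interaction and 1 a lower, with a median of 1.00. Psph, the last enzyme of serine synthesis, stood at 208 and 209 CPM in WT Ctrl, at 35.9 and 33.7 in KO1 Ctrl, at 30.7 and 33.05 in KO2 Ctrl, at 107 and 75.5 in WT Myc, at 103 and 91.8 in KO1 Myc and at 66.5 and 87.3 in KO2 Myc, with an interaction of 2.57 ± 0.16 (SE, adjusted p = 4.9e-09). Mthfd2, a mitochondrial folate enzyme, had an interaction of 1.91 ± 0.11 (SE, adjusted p = 2.7e-09), and Shmt2, which makes mitochondrial glycine from serine, 1.56 ± 0.08 (SE, adjusted p = 1.0e-09). Both fell in WT, by 0.42 and 0.54 on the log2 scale, and rose in KO, by 1.49 and 1.01. Ahcy, which hydrolyses adenosylhomocysteine, did not pass at 0.08.

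**Figure D4:**
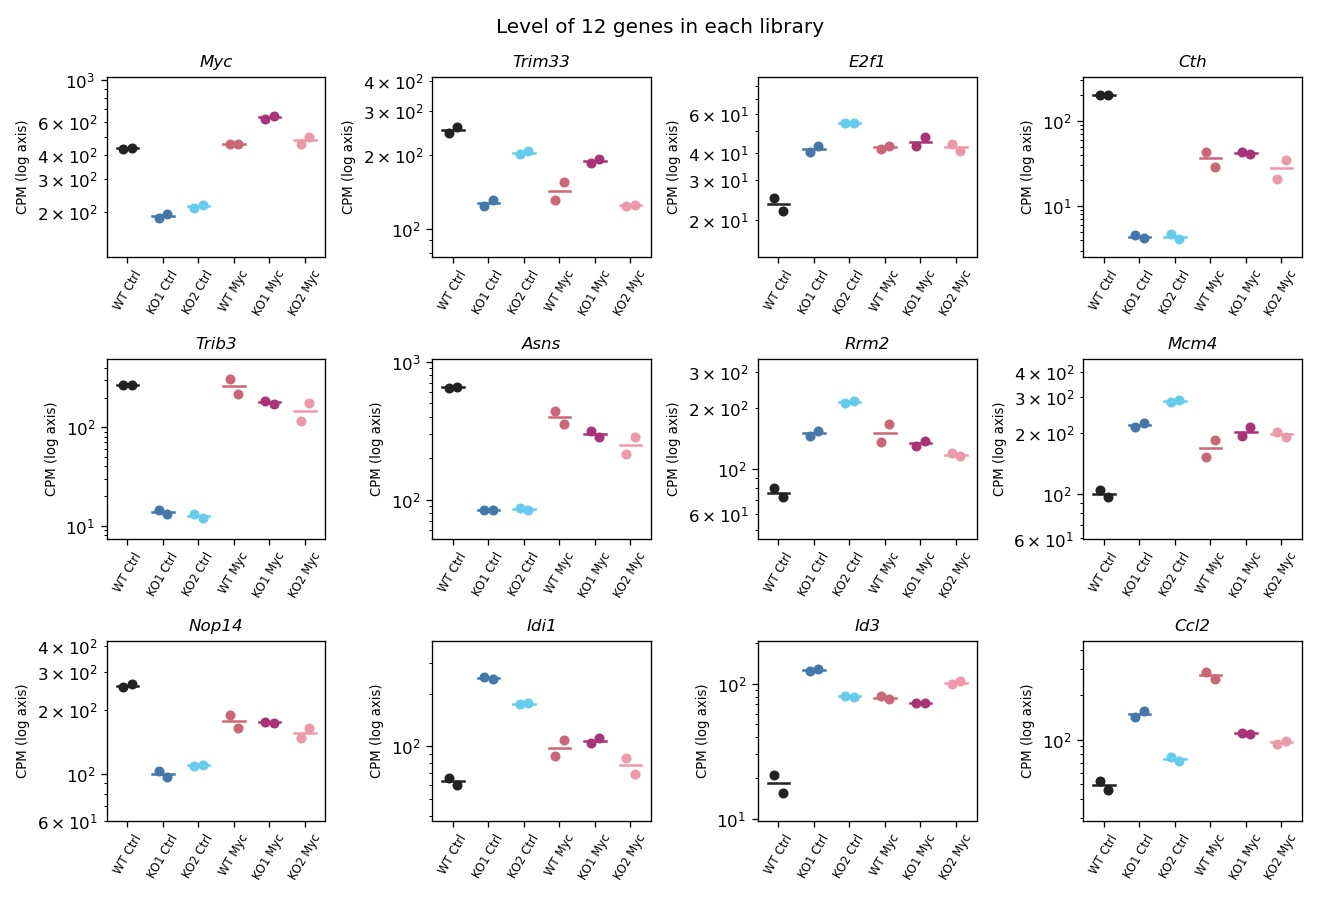
Points give the CPM of 12 genes in each library (log axis) and lines the mean of the 2 libraries of a group. Cth, Trib3 and Asns are lowest in KO Ctrl, while E2f1, Rrm2, Mcm4 and Id3 are lowest in WT Ctrl.

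Promoters of 2 genes of the stress response are shown because they hold the core of the amino acid response element, the composite site of Atf4 and C/EBP. Genes on chromosomes 8 and 18 were left out of the choice. Of the others, Fgf21 and Chac1 are the members with the largest interaction whose 250 bases before the start hold TGATGCAA on either strand (capitals). Fgf21 was ranked by a fitted value that is not given, since both KO Ctrl groups were at or below 3 counts. The sequences are from RefSeq, build GRCm38.p6 (Fgf21 chr7:45615491-45615740, minus strand and Chac1 chr2:119350992-119351241, plus strand).
Fgf21: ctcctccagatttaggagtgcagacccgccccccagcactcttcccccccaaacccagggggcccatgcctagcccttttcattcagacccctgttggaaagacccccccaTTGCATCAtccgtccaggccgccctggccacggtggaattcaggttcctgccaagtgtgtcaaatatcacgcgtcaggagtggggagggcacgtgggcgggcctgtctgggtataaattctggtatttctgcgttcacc
Chac1: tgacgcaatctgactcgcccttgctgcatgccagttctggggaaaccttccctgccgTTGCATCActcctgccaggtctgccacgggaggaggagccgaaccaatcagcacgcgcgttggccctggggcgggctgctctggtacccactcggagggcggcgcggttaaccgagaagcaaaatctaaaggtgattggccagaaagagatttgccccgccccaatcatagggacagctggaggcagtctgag
The match starts 139 bases before the start of Fgf21 and 193 before that of Chac1. Among windows of the stress list, 6 of 24 (25%, 20 genes matched) held these letters, among windows of all genes tested 85 of 12439 (0.683%), and 260 of 32851 (0.791%) among windows of all annotated genes. In genes with a higher interaction the share was 36 of 2300 windows, 1.57%, and in those with a lower interaction it was 7 of 2154, 0.325%. None of the 12 windows of the serine and one-carbon list held them. Of the lists below, 1 of 23 windows of origin licensing, firing and dNTP supply held them (4.35%). No window did for replication machinery, G2/M, ribosome biogenesis or cholesterol synthesis. A match describes the sequence only, and binding was not measured here.

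Replication genes had lower interactions. Of 35 genes of the replication machinery, 24 had a lower and 1 a higher interaction, with a median of -0.68. The Myc vector raised 29 and lowered 2 in WT, and raised 5 and lowered 6 in KO, while loss of Trim33 alone raised 24 and lowered 4. WT Ctrl lay outside the range of all other libraries in 28 of the 35, beside 37.1% of all genes. Mcm4, a subunit of the replicative helicase, stood at 104 and 95.9 CPM in WT Ctrl, at 213 and 223 in KO1 Ctrl, at 286 and 289 in KO2 Ctrl, at 152 and 184 in WT Myc, at 193 and 213 in KO1 Myc and at 202 and 190.5 in KO2 Myc. WT Ctrl was lowest and KO2 Ctrl highest, and all other libraries lay between, with an interaction of -1.08 ± 0.10 (SE, adjusted p = 2.5e-07). Rpa2, a subunit of the protein that coats single-stranded DNA, stood at 22.1 and 20.4 CPM in WT Ctrl, at 39.6 and 39.9 in KO1 Ctrl, at 49.6 and 47.2 in KO2 Ctrl, at 41.2 and 42.9 in WT Myc, at 39.4 and 35.8 in KO1 Myc and at 42.1 and 40.5 in KO2 Myc. The 10 libraries other than WT Ctrl lay between 35.8 and 49.6 CPM, and the interaction was -1.14 ± 0.09 (SE, adjusted p = 9.6e-08). Lig1, the ligase of Okazaki fragments, had an interaction of -1.09 ± 0.09 (SE, adjusted p = 1.4e-07) and Dna2, a nuclease and helicase of fork processing, of -1.71 ± 0.21 (SE, adjusted p = 5.8e-06). Pola1, the catalytic subunit of polymerase alpha, did not pass at -0.27 ± 0.11 (SE, adjusted p = 0.049).

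Of 24 genes of origin licensing, firing and dNTP supply, 16 had a lower interaction (66.7%), with a median of -0.56 over the list. A higher one was called in 5 (20.8%, near the 18.1% of all genes). Rrm2, the regulated subunit of ribonucleotide reductase, stood at 80.1 and 72.5 CPM in WT Ctrl, at 145 and 154 in KO1 Ctrl, at 212 and 217 in KO2 Ctrl, at 135 and 166 in WT Myc, at 129.8 and 137 in KO1 Myc and at 119 and 116 in KO2 Myc. It rose in WT with the Myc vector by 0.98 and fell in KO by 0.52 on the log2 scale, with an interaction of -1.50 ± 0.10 (SE, adjusted p = 8.1e-09). Tk1, thymidine kinase, was at 44.1 and 36.5 CPM in WT Ctrl and between 92.5 and 109 in the other 10 libraries, with an interaction of -1.40. Cdc6, the loader of the Mcm helicase, had -1.30 and Gmnn, which blocks relicensing, -1.21. Dut, which removes dUTP, had 0.19 and was not called.

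Of 36 genes of G2/M and mitosis, 22 had a lower and 1 a higher interaction, with a median of -0.37. The Myc vector raised 17 and lowered 3 in WT, but raised 1 and lowered 18 in KO. Kif20a, a kinesin of cytokinesis, had -0.82, Cdc20, the activator of the anaphase complex, -0.80, Birc5, survivin, -0.78 and Cenpa, the centromeric histone, -0.78. Anln, a septin anchor, did not pass at 0.02. Of 19 E2f factors and DREAM subunits, 7 were lower and 1 higher, with a median of -0.16 that was -0.0067 for KO2 alone as labelled. E2f7, a repressor that E2f1 induces, had -1.49 ± 0.19 (SE, adjusted p = 7.6e-06), Mybl2, the B-Myb partner of the DREAM core, -1.37 ± 0.10 (SE, adjusted p = 1.7e-08), and E2f8 -0.78. Mybl2 rose in both, by 1.82 in WT and 0.44 in KO.

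A pair of helicase promoters is shown for the replication list. Genes on chromosomes 8 and 18 were again left out of the choice. Of the others, Mcm7 and Mcm6 are the members with the largest interaction whose 250 bases before the start hold an E2f site. The site is TTTCCCGC or TTTGGCGC on either strand (capitals, RefSeq, GRCm38.p6, Mcm7 chr5:138171884-138172133, minus strand and Mcm6 chr1:128359706-128359955, minus strand).
Mcm7: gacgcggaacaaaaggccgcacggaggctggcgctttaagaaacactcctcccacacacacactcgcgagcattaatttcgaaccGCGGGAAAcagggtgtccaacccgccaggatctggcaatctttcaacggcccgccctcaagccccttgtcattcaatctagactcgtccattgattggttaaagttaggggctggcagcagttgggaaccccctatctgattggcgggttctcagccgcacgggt
Mcm6: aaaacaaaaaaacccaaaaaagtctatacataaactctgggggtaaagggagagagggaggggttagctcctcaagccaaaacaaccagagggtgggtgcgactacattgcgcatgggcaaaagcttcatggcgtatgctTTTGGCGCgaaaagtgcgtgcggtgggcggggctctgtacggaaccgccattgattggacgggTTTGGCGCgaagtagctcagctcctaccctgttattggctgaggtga
Mcm7 holds 1 match and Mcm6 holds 2. These subunits had interactions of -0.71 and -0.71. Of 35 windows of the replication list, 6 held a match, 17.1%. The licensing and dNTP list had 3 of 23 (13%) and the G2/M list 0 of 32. The ribosome biogenesis list below, whose called interactions were higher, had 3 of 52 (5.77%). No window of the stress, serine or cholesterol lists held one. Over genes tested 304 of 12439 windows (2.44%) held a match, and over all annotated genes 427 of 32851 (1.3%). The share was 3.16% in genes with a lower and 2.04% in those with a higher interaction.

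Ribosome biogenesis, the assembly of rRNA and proteins in the nucleolus and a known output of Myc, had 29 genes with a higher and 0 with a lower interaction among 51, with a median of 0.34. In WT the Myc vector raised 5 and lowered 14, and in KO it raised 38 and lowered 1. Nop14, a factor of the small subunit, stood at 255 and 263 CPM in WT Ctrl, at 102 and 95.95 in KO1 Ctrl, at 108 and 110.1 in KO2 Ctrl, at 188 and 164 in WT Myc, at 175 and 174 in KO1 Myc and at 147 and 165 in KO2 Myc. WT Ctrl was highest, KO Ctrl lowest, and all Myc libraries lay between 147 and 188 CPM, with an interaction of 1.22 ± 0.08 (SE, adjusted p = 1.2e-08). Wdr74 had 0.88, Rrp12 had 0.86 and Ddx10, a helicase of ribosome assembly, 0.85. Nolc1, a nucleolar chaperone, rose in both, by 0.28 in WT and 0.40 in KO, and its interaction of 0.12 was not called. Of the cytosolic ribosomal proteins, only Rpl12 had an interaction, 1 of 77, at 0.41 ± 0.09 (SE, adjusted p = 0.001). The Myc vector raised 50 of them in WT and 75 in KO and lowered 0 in either, with medians of 0.29 and 0.32. Rpl4 had 0.16 and missed the threshold. Ribosomal protein genes have many pseudogene copies that can share reads. The E-box CACGTG, the site of Myc and Max, was in 4 of 52 windows of the ribosome biogenesis list (7.69%) and in 1015 of 12439 over genes tested (8.16%), with 10.1% in genes of higher and 7.01% in genes of lower interaction. Among the other lists searched the share was highest for cholesterol synthesis, at 4 of 18 (22.2%), and the stress response, at 4 of 24 (16.7%). It was 11.4% for the replication list, 8.7% for licensing and dNTP, 6.25% for G2/M and 0 of 12 for serine.

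Of 18 genes of purine and pyrimidine synthesis, 4 were higher (22.2%, near the 18.1% of all genes) and 1 lower (5.56%, beside 16.6%), with a median of -0.04. Prps2, which makes the ribose donor, had -1.07, Atic and Gmps, enzymes of purine synthesis, had 0.58 and 0.29, Adss had 0.34 and Paics missed the threshold at -0.16. In the Myc, Max and Mxd network, 3 of 11 genes were higher (27.3%) and 2 lower (18.2%). Beside Myc and Mxd3, Mga, a repressor that binds Max, had 0.72 ± 0.12 (SE, adjusted p = 1.4e-04) and Mxd4, another Myc antagonist, -0.66. Mxd3 was at 1.27 and 1.16 CPM in WT Ctrl and between 6.21 and 10.5 in the other libraries. Mxi1 did not pass at -0.13.

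Cholesterol synthesis genes fell with the Myc vector in KO cells. Of 23 genes, 19 were lower and 0 higher, with a median of -0.89. The Myc vector lowered 22 of them and raised 0 in KO (median -0.85), and raised 6 and lowered 5 in WT (median 0.04), and loss of Trim33 alone raised 18 and lowered 1. Idi1, which isomerises isopentenyl diphosphate, stood at 66.1 and 60.1 CPM in WT Ctrl, at 249.7 and 244 in KO1 Ctrl, at 175 and 176 in KO2 Ctrl, at 88.2 and 108 in WT Myc, at 105 and 111 in KO1 Myc and at 86.1 and 69.7 in KO2 Myc. The KO Ctrl libraries were the highest and did not overlap the others, and the interaction was -1.82 ± 0.12 (SE, adjusted p = 6.3e-09). Mvd, of the mevalonate pathway, had -1.48, and Dhcr7 and Nsdhl, of the late steps, had -1.47 and -1.43. Srebf2, the master factor of the pathway, missed the threshold at -0.23 ± 0.08 (SE, adjusted p = 0.021). Only 3 of the 23 had WT Ctrl outside the other libraries, beside 37.1% of all genes. The letters TCACNCCAC of the sterol response element were in 0 of 18 windows of the list and in 0.973% of windows of genes tested.

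In glycolysis and hypoxia, 5 of 24 genes were higher (20.8%, near the 18.1% of all genes) and 10 lower (41.7%), with a median of -0.19. Ndrg1, a stress-induced protein, stood at 464 and 484 CPM in WT Ctrl, at 79.05 and 76.8 in KO1 Ctrl, at 67.5 and 70.8 in KO2 Ctrl, at 258 and 225 in WT Myc, at 209 and 199 in KO1 Myc and at 146 and 171 in KO2 Myc, with an interaction of 2.27 ± 0.09 (SE, adjusted p = 1.0e-10). Vegfa, the vascular growth factor, had 1.32 and Hk2, a hexokinase, 1.19. These 3 were highest in WT Ctrl, fell in WT and rose in KO. Ankrd37, a hypoxia target, had -1.39 and Aldoa missed the threshold at -0.16. In the unfolded protein response, 8 of 21 were higher (38.1%) and 3 lower (14.3%, near the 16.6% of all genes). The sensors Ern1 and Atf6 had 2.06 ± 0.12 (SE, adjusted p = 2.1e-09) and 1.94 ± 0.09 (SE, adjusted p = 2.1e-10), Herpud1 had 1.47, and Sdf2l1, a chaperone partner, had -1.47, while Hsp90b1 was not called at 0.15. Of 72 oxidative phosphorylation genes, 17 were lower and 2 higher, so that 23.6% were lower beside 16.6% of all genes. Called members ranged from -0.89 for Atp5k to 0.89 for Uqcrq. Of 21 Nrf2 and antioxidant genes, 13 were lower (61.9%) and 3 higher (14.3%, near the 18.1% of all genes). Their median was -0.46, and -0.21 for KO1 alone as labelled. Gstm1, a glutathione transferase, rose by 1.47 in WT and 0.38 in KO, with an interaction of -1.09 ± 0.07 (SE, adjusted p = 8.4e-09). Srxn1, sulfiredoxin, had -1.01 and Pgd, of the pentose phosphate path, -0.99. Nqo1, a quinone reductase, had -0.83, with 1.01 for KO1 and -2.66 for KO2 as labelled.

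Interferon-stimulated genes, which sense and restrict viruses, had 12 lower and 0 higher interactions among 31. The median was -1.22, with -1.45 for KO1 and -0.59 for KO2 alone as labelled. They were raised by the Myc vector in WT in 15 cases and lowered in 0, while in KO 2 were raised and 8 lowered. Stat2, a factor of interferon signaling, stood at 4.31 and 5.81 CPM in WT Ctrl, at 9.78 and 9.00 in KO1 Ctrl, at 6.40 and 5.46 in KO2 Ctrl, at 11.1 and 14.8 in WT Myc, at 5.00 and 5.93 in KO1 Myc and at 7.18 and 6.63 in KO2 Myc. WT Myc was highest without overlap, and the interaction was -1.64 ± 0.21 (SE, adjusted p = 1.2e-05). Parp14 stood at 2.33 and 2.39 CPM in WT Ctrl, at 2.79 and 2.83 in KO1 Ctrl, at 0.588 and 0.911 in KO2 Ctrl, at 5.72 and 7.10 in WT Myc, at 0.465 and 0.679 in KO1 Myc and at 2.02 and 1.99 in KO2 Myc, with -1.88 ± 0.31 (SE, adjusted p = 1.1e-04), where WT Myc was again highest, but the interaction was -3.73 for KO1 and -0.03 for KO2 as labelled. Samd9l had -1.75, and Ifit3, at no more than 2.02 CPM in any library, -3.08 ± 0.71 (SE, adjusted p = 0.002). Eif2ak2, the kinase PKR, did not pass at -0.33. Levels were low in many members, and 8 of the 31 had a group at or below 3 counts in each library. Without these the median was -0.98. Of 13 genes of MHC class I presentation, 3 were lower and 3 higher, 23.1% each beside 16.6% and 18.1% of all genes. Tapbp, tapasin, had -1.27 and Psmb10, an immunoproteasome subunit, -0.96, against 1.01 for H2-K1 and 0.95 for H2-M3. H2-K1 belongs to a family of near-identical genes and is uncertain, and it was -0.35 for KO1 alone as labelled. H2-M3 is uncertain too, with a mean of 3.67 CPM and neither response called. The median of the list was -0.23, but 0.40 for KO2 alone as labelled. B2m was not called at 0.11.

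Of 34 genes of NF-kB and TNF signaling, 15 were lower (44.1%) and 6 higher (17.6%, near the 18.1% of all genes). The median was -0.28, but -0.18 without KO1 Ctrl replicate 2 and -0.56 for KO1 alone as labelled. Beside C3 and Ccl2, the neutrophil chemokine Cxcl5 was at 0.0707 and 0.137 CPM in WT Ctrl, at 3.97 and 3.37 in WT Myc and between 0.195 and 1.05 in the KO libraries. Saa3, an acute-phase protein, was at 2.53 and 2.69 CPM in KO1 Ctrl, 2.19 and 2.10 in KO2 Myc and between 0 and 1.06 elsewhere, again with KO1 Ctrl and KO2 Myc alike. Nfkb1 did not pass at -0.06. Of 18 AP-1 and immediate-early genes, 11 were lower (61.1%) and 3 higher (16.7%, near the 18.1% of all genes). Fos stood at 14.7 and 14.8 CPM in WT Ctrl, at 128 and 101.4 in KO1 Ctrl, at 95.4 and 93.4 in KO2 Ctrl, at 36.4 and 36.9 in WT Myc, at 38.2 and 36.3 in KO1 Myc and at 78.7 and 56.5 in KO2 Myc. The KO Ctrl libraries were highest and WT Ctrl lowest, with an interaction of -2.37 ± 0.18 (SE, adjusted p = 2.8e-08). Jun had -1.30 ± 0.07 (SE, adjusted p = 6.4e-10) and Fosb -1.73, whereas Atf3, an Atf4 target, had 1.88 ± 0.23 (SE, adjusted p = 6.3e-06), and Klf6 was not called at 0.25.

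In TGF-beta and BMP signaling, the path in which Trim33 is best known, 12 of 41 genes were lower (29.3%). A higher interaction was called in 7 (17.1%, near the 18.1% of all genes), and the median of the list was -0.0040. Among called members the largest absolute values were those of Id3, Id2 and Id1, early BMP targets that block differentiation factors. Id3 stood at 20.9 and 15.4 CPM in WT Ctrl, at 124 and 129 in KO1 Ctrl, at 80.7 and 79.9 in KO2 Ctrl, at 80.98 and 76.6 in WT Myc, at 71.2 and 71.8 in KO1 Myc and at 98.6 and 104 in KO2 Myc. WT Ctrl was lowest without overlap, and the interaction was -2.36 ± 0.11 (SE, adjusted p = 2.5e-10). Id2 stood at 40.2 and 35.8 CPM in WT Ctrl, at 90.03 and 92.7 in KO1 Ctrl, at 121 and 117 in KO2 Ctrl, at 45.9 and 49.8 in WT Myc, at 27.1 and 26.1 in KO1 Myc and at 38.02 and 33.8 in KO2 Myc. Here KO Ctrl was highest, and the interaction was -2.09 ± 0.10 (SE, adjusted p = 2.2e-10). Id1 had -1.95 ± 0.11 (SE, adjusted p = 1.8e-09) and Smad6, the feedback inhibitor of BMP signaling, -1.15 ± 0.17 (SE, adjusted p = 5.0e-05), while Ltbp3 missed the threshold at -0.20. These 3 Id genes rose in WT with the Myc vector, by 1.33, 0.33 and 2.12 for Id1, Id2 and Id3. They fell in KO on the mean of both lines. As labelled Id3 changed by -0.82 in KO1 and by 0.34 in KO2, but the line labels did not match between the vectors. Both KO2 Myc libraries lay below both KO1 Ctrl libraries for Id3, and both KO1 Myc libraries below both KO2 Ctrl libraries. Id4, the other Id gene tested, stood at 0.424 and 0.273 CPM in WT Ctrl, at 2.26 and 2.04 in KO1 Ctrl, at 0.392 and 0.520 in KO2 Ctrl, at 0 and 0 in WT Myc, at 0.349 and 0.247 in KO1 Myc and at 0.297 and 0.331 in KO2 Myc. It was highest in KO1 Ctrl and at 0 in WT Myc, so that no fold change is given, and its interaction was not called.

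Among extracellular matrix and integrin genes, 14 of 38 were lower (36.8%) and 9 higher (23.7%), beside 16.6% and 18.1% of all genes. Itgb7 stood at 46.8 and 50.5 CPM in WT Ctrl, at 9.85 and 9.53 in KO1 Ctrl, at 21.3 and 22.8 in KO2 Ctrl, at 16.8 and 15.7 in WT Myc, at 36.05 and 32.8 in KO1 Myc and at 10.97 and 10.99 in KO2 Myc, with 2.00 ± 0.11 (SE, adjusted p = 1.1e-09), and Thbs1, thrombospondin, had -1.57. Itga7 had 2.26, and Col4a1 was not called at -0.21. The median of this list turned sign between the lines as labelled, at -0.77 for KO1 and 0.56 for KO2, beside -0.14 for both. Of 19 Hippo-Yap genes, 6 were higher (31.6%) and 3 lower (15.8%, near the 16.6% of all genes). Ccn2, a Yap target, stood at 186 and 181 CPM in WT Ctrl, at 139 and 139 in KO1 Ctrl, at 177 and 167 in KO2 Ctrl, at 359 and 359 in WT Myc, at 103 and 105 in KO1 Myc and at 116 and 117 in KO2 Myc, high in WT Myc alone, with -1.46 ± 0.06 (SE, adjusted p = 1.3e-10). Ccn1 had -0.78, Tead2 -0.75, Crim1 0.70, and Axl was not called at 0.12. Of 16 Nras and MAPK feedback genes, 7 were higher and 2 lower: the phosphatases Dusp5 and Dusp4 had 0.98 and 0.87, the Ets factors Etv5 and Etv1 had 0.82 and -0.67, and Nras missed the threshold at -0.28. Of 26 p53 targets, 10 were higher and 9 lower. Gadd45a, of growth arrest, had 2.18, Bbc3, the death factor Puma, 1.28, Pidd1 -1.34 and the death receptor Fas -1.82, and Trp53 itself was not called at -0.06.

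**Figure D5:**
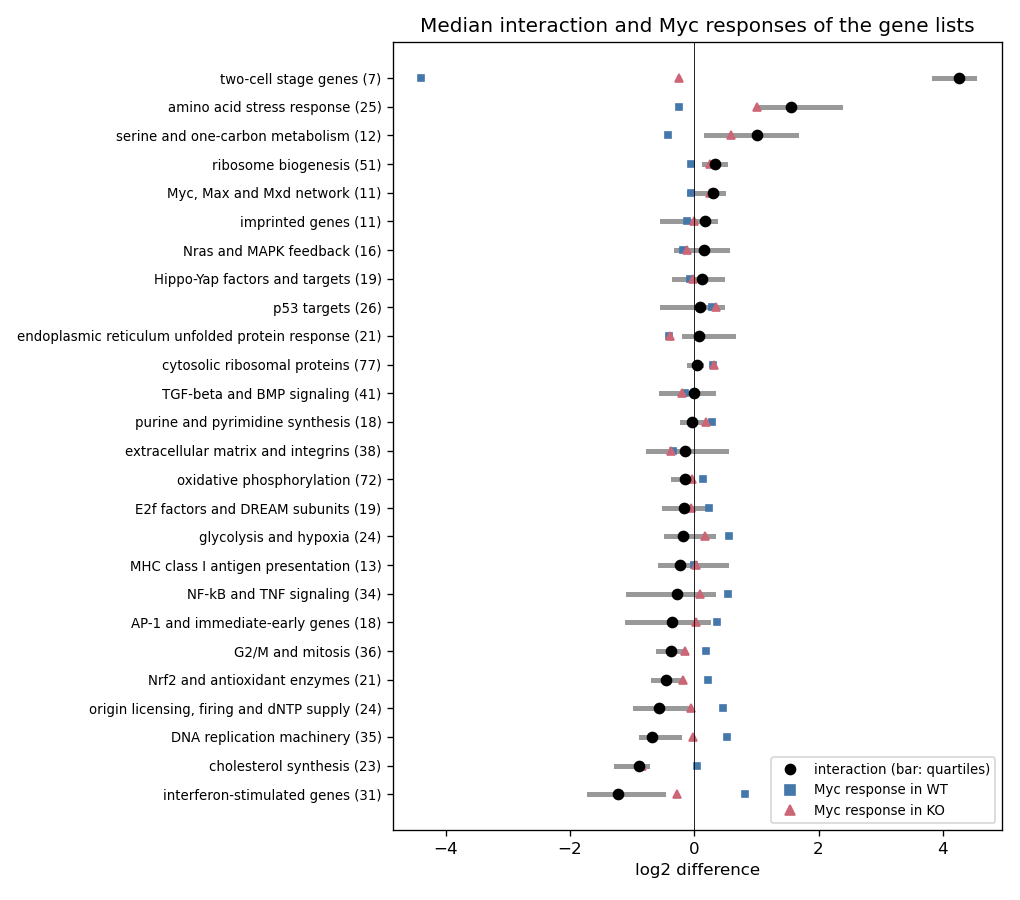
Medians over the tested members (number in brackets) of each gene list of the interaction (circle, with a bar between its quartiles), the Myc response in WT (square) and that in KO (triangle), in log2 units. The interaction runs from -1.22 for interferon-stimulated genes to 4.25 for two-cell stage genes.

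The interaction was also fitted for each line alone, as labelled. It was called in 4887 genes for KO1 (37.3%) and 4296 for KO2 (32.8%), and these counts share the WT libraries. The Myc responses of the lines as labelled differed from each other in 3453 genes (26.3%), 1610 more positive and 1843 more negative in KO1. The median absolute difference was 0.83. Since the line labels did not match between the vectors, this difference can hold that between the lines, and as labelled the part of each cannot be told apart. If the labels were exchanged in the Myc libraries, this contrast would hold the lines' difference in level and none in their Myc response. A fit with exchanged labels was not made. Cth had 5.75 for KO1 and 5.16 for KO2, Aldh1l2 4.49 and 3.55, Myc 1.66 and 1.09, and Mcm4 -0.85 and -1.30. Trim33 differed, with 1.39 for KO1 and 0.11 for KO2, of which only that of KO1 was called.

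Of 12 markers of hepatocytes, the labelled tissue's main cell, among them Alb, Apoa1 and Hnf4a, 0 were among the genes tested, as were 0 of 6 endothelial markers. Of 6 cholangiocyte markers 3 were present (Krt19, Sox9 and Spp1), and their summed level was 2789 to 2835 CPM in WT Ctrl, 1806 to 2110 in KO Ctrl and 1087 to 1484 in the Myc groups. Spp1 made up most of this sum, with group means of 912 to 2212 CPM. Krt19 followed another order, at means of 405 CPM in WT Ctrl and 291 in WT Myc. It was at 47.7 and 116 CPM in KO1 and KO2 Ctrl and at 137 and 49.2 in KO1 and KO2 Myc. Of 8 fibroblast and stellate cell markers 7 were present, with sums of 720 to 800 CPM in KO1 Ctrl, 722 to 736 in KO2 Myc and 109 to 231 in the other groups. Col3a1 and Pdgfrb were the largest parts in KO1 Ctrl and KO2 Myc. Col1a2 did not follow the sum, with means of 141 CPM in KO1 Ctrl and 89.0 in KO2 Myc, beside 130 in WT Ctrl and 121 in WT Myc. Of 8 macrophage and leukocyte markers 2 were present, Cd68 and Cd14, at sums of 22.2 to 52.96 CPM. The defining Ptprc and Csf1r were not among the genes tested. The part of these markers in the interactions was not tested.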

How the data were processed

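RNA-seq was done on 12 libraries in 6 groups of 2. Per the labels RNA was taken with TRIzol and libraries made with NEBNext Ultra II, whereas the study's methods name RNeasy and NEBNext Ultra. The authors deposited read counts per gene for mm9 under the name Norm counts. The lowest sum of a gene over the 12 libraries was 26 counts. The submitters' processing notes name STAR 2.5.4 and edgeR 3.26.8. The counter and annotation are not given in the sources used here. Library totals ranged from 14753177 to 17949430 counts.

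From these counts, edgeR 4.0.16 (R 4.3.3) was run with TMM factors (0.958 to 1.02) and a quasi-likelihood fit of 1 coefficient per group over all 12 libraries, with contrasts for the interaction, the Myc responses, the KO effects and the lines. The biological coefficient of variation was 0.0498. P-values were two-sided and adjusted over all 13107 genes by Benjamini-Hochberg at 0.01. With filterByExpr, 0 genes were removed. Values beside the tests are CPM, and a group was taken to be at the floor with no more than 3 counts in each of its libraries. The scripts were tested on simulated data.

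Named genes were Trim33, Myc, E2f4, E2f1 and Recql, the 10 largest positive and 10 largest negative interactions among called genes with a symbol, a mean of at least 5 CPM and at least 1 CPM in each group, the 3 genes with the lowest p of each class by sign, the 4 most abundant called genes with a group at the floor, and of each list up to 4 called members and 1 member not called. Ptk7, Id4, Mcm6 and Mcm7 were added after their values were seen. The genes present in KO1 Ctrl alone are not reported here. The classes and the 26 gene lists were chosen with earlier results of these data known. Medians by chromosome and the comparison of WT Ctrl with the other libraries were chosen after seeing the data. Promoters were taken from RefSeq on GRCm38.p6, and gene positions from the mm9 annotation. Alternatives were other scaling factors, filters and thresholds, DESeq2 1.42.0, each KO line alone, a replicate block and leaving out each library.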

Additional observations from a re-analysis of the deposited data

Results flagged for a closer look

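These results are listed because the Myc response differed between groups by a test of the difference itself, edgeR's quasi-likelihood test with Benjamini-Hochberg adjustment. The difference between WT and KO was called in 4543 genes, and in 919 of them the responses had opposite directions. Between KO1 and KO2 as labelled, 3453 genes differed. The line labels did not match between the vectors, so this count can hold the difference in level between the lines. The interaction of Trim33 was 0.75, with the WT Myc libraries below those of KO2 Ctrl and KO1 Myc. That of Myc was 1.38 and that of E2f1 was -0.98. Among genes of opposite direction with the lowest p, the interaction was 4.02 for Aldh1l2, 3.42 for Ddr2 and -2.79 for Aldh3a1.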

How the results depend on the processing

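RLE factors changed no call among the 148 named genes followed. The run without a low-count filter repeats the main run, since filterByExpr removed 0 genes, and so tests nothing. Requiring an absolute log2 of 1 as well left 1046 interactions (487 higher, 559 lower), 1455 differences between the lines, and 37 opposite, 14 smaller, 2 larger, 476 WT only, 156 KO only and 361 neither responses. It left 193 lower interactions where both single changes were higher, 188 higher ones where both were lower, and 1 in their shared direction. At an adjusted p of 0.05 there were 1482 opposite, 921 smaller and 194 larger responses and 28 in the shared direction. KO1 alone gave 188 smaller, 172 larger and 230 neither, and KO2 alone 226 smaller, 218 larger and 76 in the shared direction. Leaving out each library in turn gave 3288 to 5096 interactions, 1706 to 2781 higher and 1582 to 2342 lower, 2655 to 4382 differences between the lines, 599 to 1088 opposite, 310 to 768 smaller, 24 to 87 larger, 1232 to 2012 WT only, 860 to 1265 KO only, 132 to 178 neither, 803 to 1401 lower where both were higher, 972 to 1566 higher where both were lower, and 6 to 14 in the shared direction. The cause of these moves was not tested.

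With the replicate block 4639 interactions were called and 2 of the 148 named genes became called. The labels do not say that a number pairs libraries, and the deviations of same-numbered libraries correlated between groups at -0.356 to 0.485 (median 0.0519, 15 pairs of groups), so that the libraries share only a number. DESeq2 called 3989 interactions.

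Reversed values were of these genes. With KO1 alone they were 0.0020 for E2f4, 1.26 for Slfn2, -0.0196 for Rpl4, -0.0780 for Ahcy, -0.45 for Hsp90b1, -0.35 for H2-K1, -0.19 for B2m, 1.01 for Nqo1 and -0.14 for Gnas. With KO2 alone they were 0.63 for Col3a1, -0.0221 for Anln, 0.0189 for Paics, 0.14 for Ddit4, 0.23 for Atp5b, 0.12 for Nfkb1, 0.36 for Ltbp3, 0.38 for Col4a1 and 0.0427 for Etv1. Anln was -0.0249 with upper-quartile factors, -0.0633 with library totals and -0.0199 with at least 5 CPM in every library, and Gnas -0.00013 and -0.0372 with the former factors and totals. Leaving out each library in turn gave -0.0673 to 0.0656 for E2f4 (reversed at 0.0385, 0.0181, 0.0108, 0.0656, 0.0160 and 0.0215), reversed Anln at -0.0016, -0.0995 and -0.0143, and gave -0.25 to 0.0750 for Ddit4. List medians changed sign for cytosolic ribosomal proteins, purine synthesis, TGF-beta, matrix, MHC class I, unfolded protein, p53 and imprinted genes.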

Other observations

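Genes of the two-cell stage, which mark a transient state of early embryos and of rare cultured cells, had a higher interaction in 7 of 7 tested members. The median was 4.25, with 2.495 for KO1 and 6.01 for KO2 alone as labelled. Zscan4c stood at 16.5 and 16.4 CPM in WT Ctrl, at 4.26 and 4.27 in KO1 Ctrl, at 4.18 and 3.32 in KO2 Ctrl, at 0.585 and 0.828 in WT Myc, at 0.988 and 1.42 in KO1 Myc and at 11.8 and 9.94 in KO2 Myc. It was highest in WT Ctrl, and its interaction was 4.37 ± 0.29 (SE, adjusted p = 8.5e-09). Zscan4d and Zscan4f had 4.65 and 4.25. The Zscan4 copies are near-identical and can share reads, so their separate values are uncertain. Of 11 imprinted genes 2 were lower, 18.2% beside 16.6% of all genes, with -0.62 for Peg12, and Gnas was not called at 0.04.

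Medians by chromosome were taken over 11129 genes placed on the mm9 annotation. The interaction averaged over the lines had medians between -0.0874 on chromosome 15 and 0.1143 on chromosome 18. The interactions of the lines as labelled lay apart on some chromosomes: on chromosome 10 the median was -0.1942 for KO1 and 0.2358 for KO2, on chromosome 1 it was -0.1876 and 0.1705, and on chromosome X 0.2232 and -0.2393.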
